A study of Homo sapiens with 6 samples.

Results

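The replication-dependent histone genes supply the core histones H2A, H2B, H3 and H4 and the linker histone H1 that package newly copied DNA. They were taken as every gene of the expression table named H1-1 to H1-6, or named H2AC, H2BC, H3C or H4C followed by a number, with 12 pseudogene symbols left out. This gave 66 of 60546 gene identifiers, of which 6 were H1, 16 H2A, 17 H2B, 13 H3 and 14 H4 genes. The libraries came from HCT-116, an established human colon carcinoma line that the labels give as wild type, carrying the PMSCV retroviral construct with GOLPH3 (a Golgi membrane phosphoprotein) or the empty vector. Each label had 3 libraries, which the study's methods take from different generations of the 2 lines. The sample titles end in P8, P12 and P13 for GOLPH3 and in P12, P11 and P13 for Vector, and the labels do not say what P stands for. Separate infections are not stated, so every p-value here measures the spread between these libraries of 1 line per label, which may be partly technical. The study's question was how gene expression differs between cells with more GOLPH3 and their controls.

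These genes are known for being switched on together as cells enter S phase, in bodies of the nucleus where NPAT and its partners gather at the histone gene clusters. Their standard messenger RNA has no intron and no poly(A) tail, and ends instead just after a short stem-loop that the protein SLBP binds for processing, export, translation and timed decay. Some of the genes can also give longer polyadenylated transcripts, especially in cells that are not dividing. The labels give total RNA and standard Illumina library preparation, and the sources used here do not say whether poly(A) selection or ribosomal depletion was used, which sets how much of the tail-less form can be seen.

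The values are normalized reads per gene, that is, whole reads divided by 1 size factor per library and not by gene length. The libraries held between 15708846 and 21900764 recovered reads, of which mitochondrial genes took 4.41% to 9.97%. A limit of 3 reads, used below as the smallest level that counts as detected, equals 2.47 to 3.29 normalized reads. GOLPH3 itself was not higher in the libraries labelled GOLPH3, which held 1630 (P8), 1272 (P12) and 1383 (P13) normalized reads, than in those labelled Vector, which held 1892 (P11), 1968 (P12) and 1472 (P13). The log2 difference was −0.31 ± 0.27 (SE, n = 3 against 3, limma adjusted p = 0.609), and these reads cannot tell the endogenous from the introduced transcript. The directions below are therefore between libraries labelled GOLPH3 and libraries labelled Vector.

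Stem-loops were searched for in the GENCODE 29 transcripts (GRCh38) of the 64 members that this annotation holds, as a start of GG, a perfectly paired stem of 6 bases and a loop of 4 bases with at least 3 T. The search found one in 26 members and in 0.733% of 19922 protein-coding genes, so the name of the set holds for these members. Another 33 members have 1 transcript model of a length divisible by 3 in which no stem-loop was found. Most of these models are close to the coding length, so the stretch that would hold the stem-loop is not in them. H2AC11 (2250 bases), H2BC1 (516) and H4C3 (435) have longer models than that. Letters of the core came in 4 forms, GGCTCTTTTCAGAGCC in 15 members, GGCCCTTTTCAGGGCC in 4, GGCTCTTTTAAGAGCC in 4 and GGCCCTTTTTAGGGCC in 3. The 2 forms with a GGCC start were found in H4 genes and the 2 with a GGCT start in H2A, H2B and H3 genes. The stem-loops of members that carry the results follow, with the 16-base core in capitals and 5 flanking bases on each side.
H2AC6, core at chr6:26124669-26124684, plus strand: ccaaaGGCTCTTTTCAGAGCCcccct
H3C10, core at chr6:27810516-27810531, plus strand: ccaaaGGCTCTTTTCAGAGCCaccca
H2BC18, core at chr1:149811885-149811900, minus strand: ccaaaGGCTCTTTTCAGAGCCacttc
H2BC21, core at chr1:149886188-149886203, minus strand: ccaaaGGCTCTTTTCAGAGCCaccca
H2BC5, core at chr6:26158587-26158602, plus strand: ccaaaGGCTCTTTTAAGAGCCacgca
H4C5, core at chr6:26205001-26205016, plus strand: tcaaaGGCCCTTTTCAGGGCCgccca
H4C9, core at chr6:27139654-27139669, plus strand: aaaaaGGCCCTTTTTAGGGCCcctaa
The first 4 share a core. H2BC5 shows the 2 kinds of end within 1 gene, since its 1-exon transcript stops 39 bases after the stem-loop and its 2-exon transcript of 789 bases has none. In H2AC6 an annotated transcript runs on for 1128 bases past the stem-loop, in H2BC21 for 1729 bases and in H4C5 for 1022. All told 22 members had such extended models, defined as a second exon or more than 100 bases past the stem-loop.

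The promoters of 61 members were in the RefSeq table (GRCh38.p14, 250 bases before to 50 after the start of transcription). The TATA box letters TATAAA, on either strand, stood in 68.9% of member promoters and in 14% of 27305 promoters of all genes. CCAAT stood in 85.2% against 39.7%, and the octamer ATTTGCAT in 42.6% against 2.19%. Classes differed within the set. CCAAT was found in every H1, H2A, H2B and H3 promoter but in 25% of those of H4, and the octamer in 73.3% of H2A and 82.4% of H2B promoters, in 9.09% of H3 and in none of H1 or H4. The promoters of the 5 most abundant members are given with these letters, on either strand, in capitals; they are matches of letters and not mapped sites.
H1-2, chr6:26056421-26056720, minus strand: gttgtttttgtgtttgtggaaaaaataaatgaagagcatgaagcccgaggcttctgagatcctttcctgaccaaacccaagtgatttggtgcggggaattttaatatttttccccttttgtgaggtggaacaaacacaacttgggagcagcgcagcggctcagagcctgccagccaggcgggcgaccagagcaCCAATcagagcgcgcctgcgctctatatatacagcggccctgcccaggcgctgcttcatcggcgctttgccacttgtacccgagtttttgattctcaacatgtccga
H2AC6, chr6:26123922-26124221, plus strand: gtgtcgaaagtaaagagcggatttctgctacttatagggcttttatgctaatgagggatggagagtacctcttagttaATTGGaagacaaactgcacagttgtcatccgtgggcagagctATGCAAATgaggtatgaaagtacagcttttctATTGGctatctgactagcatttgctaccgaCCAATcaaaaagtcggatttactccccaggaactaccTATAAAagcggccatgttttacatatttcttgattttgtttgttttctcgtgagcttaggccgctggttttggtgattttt
H2BC5, chr6:26157871-26158170, plus strand: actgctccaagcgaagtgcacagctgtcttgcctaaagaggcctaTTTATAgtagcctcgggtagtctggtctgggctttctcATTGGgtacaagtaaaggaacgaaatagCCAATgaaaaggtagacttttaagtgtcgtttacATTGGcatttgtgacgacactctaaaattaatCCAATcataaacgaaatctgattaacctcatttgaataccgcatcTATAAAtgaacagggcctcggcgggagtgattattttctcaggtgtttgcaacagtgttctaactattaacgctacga
H2BC12, chr6:27146809-27147108, minus strand: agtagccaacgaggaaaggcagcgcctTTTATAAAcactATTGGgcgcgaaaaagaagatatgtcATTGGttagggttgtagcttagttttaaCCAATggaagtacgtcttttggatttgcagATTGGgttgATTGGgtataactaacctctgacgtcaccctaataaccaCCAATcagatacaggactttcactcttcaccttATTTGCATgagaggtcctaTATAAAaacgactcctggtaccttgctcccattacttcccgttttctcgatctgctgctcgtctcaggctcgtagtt
H4C9, chr6:27139032-27139331, plus strand: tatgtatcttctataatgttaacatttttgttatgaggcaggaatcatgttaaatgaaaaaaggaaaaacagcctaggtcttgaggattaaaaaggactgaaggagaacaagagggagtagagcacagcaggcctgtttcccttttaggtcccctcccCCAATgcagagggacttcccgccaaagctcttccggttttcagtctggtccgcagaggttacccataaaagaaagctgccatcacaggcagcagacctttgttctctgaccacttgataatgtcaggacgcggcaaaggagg
The H4C9 and H1-2 promoters each held a single CCAAT and neither of the other motifs, while H2BC12 held all 3. Vector P11 was the highest library for H4C9 and the lowest for H1-2. Whether these letters go with the order of the libraries was not tested.

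The family as a whole was a small part of each library, with 7999 of 106902108 recovered reads. Summed over the 66 members, the libraries labelled GOLPH3 held 1085 (P8), 1813 (P12) and 2027 (P13) normalized reads, or 1642 ± 494 (SD, n = 3). Those labelled Vector held 663 (P11), 1205 (P12) and 956 (P13), or 941 ± 272 (SD, n = 3). The ranges overlapped, since Vector P12 lay above GOLPH3 P8, and the highest library exceeded the lowest 3.06-fold. As a share of all recovered reads the sum went from 0.00385% in Vector P11 to 0.0105% in GOLPH3 P13. In bulk RNA, fewer cells in S phase and less histone RNA per cell cannot be told apart.

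**Figure D1:**
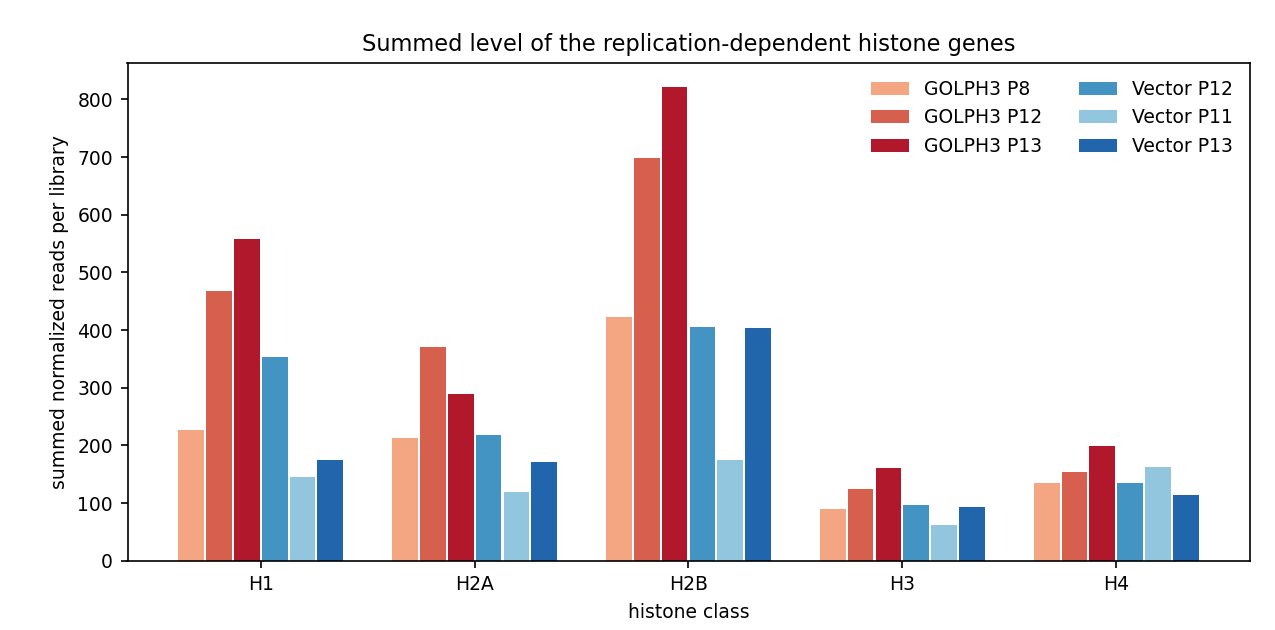
Summed normalized reads (vertical axis) of the members of each histone class (horizontal axis) in the 6 libraries, 1 bar per library with no error since each is a single library. GOLPH3 P13 or P12 is highest in every class, H2B spans 4.72-fold from Vector P11 to GOLPH3 P13, and H4 spans 1.74-fold with Vector P11 second highest.

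Of the classes, H2B took the largest share, from 26.3% of the family's normalized reads in Vector P11 to 42.2% in Vector P13. Its sum was 423, 698 and 822 in GOLPH3 P8, P12 and P13 and 174, 405 and 403 in Vector P11, P12 and P13, so that each library labelled GOLPH3 lay above each Vector library. H1 spanned 3.82-fold, H2A 3.13-fold and H3 2.63-fold between the lowest and highest libraries. H4 spanned only 1.74-fold, with 134, 153 and 199 in GOLPH3 P8, P12 and P13 and 163, 135 and 114 in Vector P11, P12 and P13. The H4 share of the family was thus 24.6% in Vector P11 and 8.46% to 12.4% in the other 5 libraries.

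Few genes carried the family. H1-2, H2BC12, H2AC6, H2BC5 and H4C9 together made up 67.0% to 73.4% of it in every library, while 15 members had no read in any library and 13 more stayed at or under 3 reads in each. The other 38 exceeded that limit in at least 1 library. The filter for testing (3 or more libraries at 1 normalized read or above) was passed by 36 members, of which H2AC7 and H4C14 never had more than 2 reads, and 17 members averaged 10 normalized reads or more. As RPKM, computed here from the recovered reads and the annotated exon length, H2BC12 averaged 29.3, H1-2 26.4, H2BC5 8.73, H2AC6 5.55, H4C9 4.91 and H2AC20 2.98. This per-length order depends on the annotation, because H2BC12, H1-2 and H2AC20 are modelled over their coding length and the other 3 with longer exons.

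**Figure D2:**
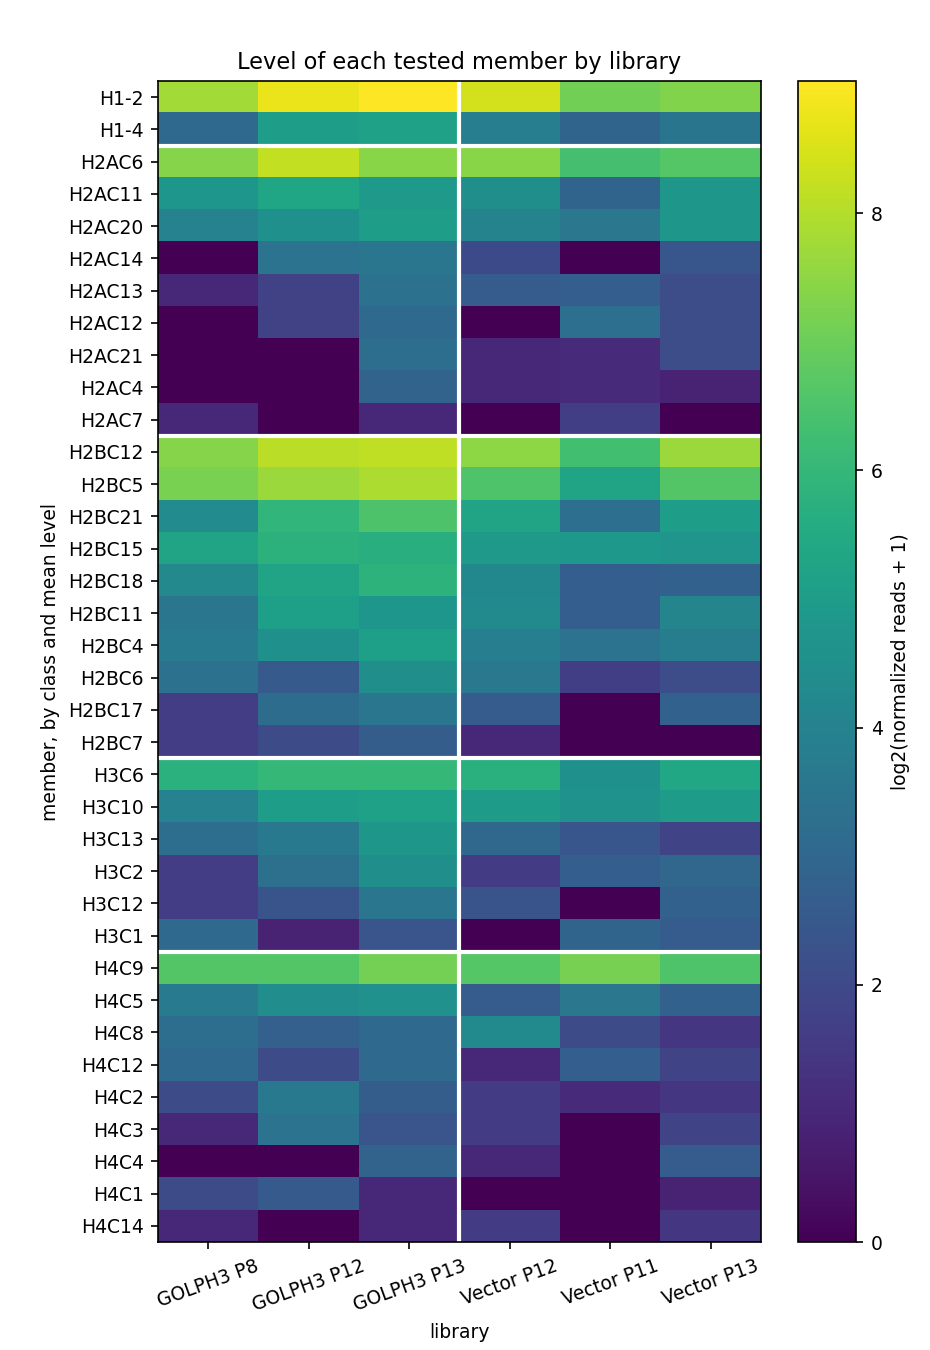
Heat map of log2(normalized reads + 1) of the 36 tested members (rows, by class and then mean level, white lines between classes) in the 6 libraries (columns, white line between the labels). H1-2, H2AC6, H2BC12, H2BC5 and H4C9 are the brightest rows, and the Vector P11 column is the darkest for many rows but not for H4C9.

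Among the linker histones, H1-2 was the most abundant member of the whole family. Its normalized reads were 219 (P8), 435 (P12) and 521 (P13) under the GOLPH3 label and 138 (P11), 337 (P12) and 160 (P13) under the Vector label. The highest 2 libraries carried the GOLPH3 label, but Vector P12 lay above GOLPH3 P8. The log2 difference was 0.91 ± 0.44 (SE, limma adjusted p = 0.309). H1-4 followed at 7.51, 32.2 and 35.2 in GOLPH3 P8, P12 and P13 against 6.57, 13.4 and 10.3 in Vector P11, P12 and P13, again with overlap (log2 difference 1.02 ± 0.67, adjusted p = 0.479). H1-5 had 4 reads at most in any library, all of its reads in Vector P12 and P13, and H1-1 had none.

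For H2A, H2AC6 stood far above the rest of its class. It held 169, 289 and 170 normalized reads in GOLPH3 P8, P12 and P13 and 82.2, 170 and 99.6 in Vector P11, P12 and P13. The 2 P12 libraries were the highest within their labels, and Vector P12 equalled GOLPH3 P13 to the precision given. H2AC6 differed between the labels by 0.85 ± 0.40 on the log2 scale (SE, adjusted p = 0.302). H2AC11 ranged from 6.57 in Vector P11 to 39.6 in GOLPH3 P12, and H2AC20 from 11 in Vector P11 to 32 in GOLPH3 P13. Neither passed the test (adjusted p = 0.480 and 0.772), and both had overlapping groups.

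In H2B all 10 tested members had a positive log2 difference between the labels, as had both of H1. Of all 26536 genes tested, 13512 had a positive difference. The H2B differences ran from 0.73 to 1.89 with a median of 1.00. H2BC5 had the smallest p-value of all members. It held 146, 200 and 239 normalized reads in GOLPH3 P8, P12 and P13 and 37.2, 92.6 and 97 in Vector P11, P12 and P13, and the groups did not overlap. The log2 difference was 1.45 ± 0.45 (SE, 95% interval 0.47 to 2.42), with an unadjusted p of 0.0072 and an adjusted p of 0.0953 by limma. H2BC18 held 18.2, 37.9 and 55.5 against 5.48, 17.5 and 6.01, also without overlap although GOLPH3 P8 and Vector P12 lay close together (1.89 ± 0.63, adjusted p = 0.128). H2BC12, the most abundant H2B gene, overlapped between labels with 165, 269 and 289 against 77.8, 178 and 201 (0.73 ± 0.43, adjusted p = 0.421). H2BC21 also overlapped, at 19.3, 61 and 89.7 in GOLPH3 P8, P12 and P13 and 8.76, 38.1 and 32.6 in Vector P11, P12 and P13.

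H2BC7 lay near the limit of detection, with 11 reads in the 3 libraries labelled GOLPH3 and 1 read in the 3 Vector libraries. The ratio of their shares of all recovered reads was 9.98 with an exact 95% interval of 1.45 to 429, which covers counting error only. H2BC7 met the filter for testing through the libraries labelled GOLPH3 and was named for its small p in this comparison. The interval is therefore not independent of how the gene was chosen. H2B genes are also close copies of each other, and 74.1% of the 50-base windows of H2BC12 occur in another gene, against 5.36% for H2BC5, 8.11% for H2BC21 and 25.7% for H2BC18. Reads of H2BC12 may therefore have been lost or shared, depending on how the counting treated reads with several matches, and H2BC18 further overlaps an exon of FCGR1A.

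Among the H3 genes, H3C6 held 53.7, 63.5 and 63.0 normalized reads in GOLPH3 P8, P12 and P13 and 21.9, 52.5 and 41.2 in Vector P11, P12 and P13. All libraries labelled GOLPH3 lay above all Vector libraries, though GOLPH3 P8 exceeded Vector P12 by little (log2 difference 0.71 ± 0.47, adjusted p = 0.482). H3C10 showed no such order, with 15, 32.2 and 35.2 against 23.0, 29.8 and 30.0, the lowest library being GOLPH3 P8 (−0.09 ± 0.52, 95% interval −1.21 to 1.04). H3C13 held 8.59, 11.5 and 26.7 against 4.38, 7.21 and 2.57, without overlap (1.47 ± 0.65, adjusted p = 0.269), but 80.4% of its windows occur in another gene.

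H4C9 made up most of the H4 signal and was nearly flat. The libraries labelled GOLPH3 held 97.7 (P8), 96.5 (P12) and 140 (P13) normalized reads and the Vector libraries 142 (P11), 99.8 (P12) and 91.8 (P13). Its highest library was Vector P11, the library that was lowest for most other abundant members. The log2 difference was 0.00 ± 0.38 (SE, 95% interval −0.82 to 0.83, adjusted p = 0.998). H4C5 differed more, at 11.8, 20.6 and 22.4 against 11, 5.15 and 6.01, without overlap (1.22 ± 0.58, adjusted p = 0.311). H4C8 held 8.59, 5.77 and 7.47 against 3.29, 18.5 and 1.72, its highest library being Vector P12. H4C1 had 10 reads in the libraries labelled GOLPH3 and 1 in the Vector libraries, a ratio of 9.07 in shares of all recovered reads (exact 95% interval 1.29 to 394). That interval covers counting error only and leaves out the spread between libraries. H4C1, like H2BC7, met the filter for testing through the libraries labelled GOLPH3 and was named for its small p here. Its interval is therefore not independent of that choice.

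Members used mainly in the male germ line were at or near 0 in this line. H2AC1 and H2BC1 had no read in any library, and H1-6 had 1 read at most. H3-4, whose older symbol HIST3H3 falls under the family but whose present symbol falls outside the rule, ranged from 0.825 to 3.29 normalized reads. Its sum with the other 3 genes once named HIST3 or HIST4 (H2AW, H2BU1 and H4-16) was 158, 228 and 371 in GOLPH3 P8, P12 and P13 and 74.5, 149 and 139 in Vector P11, P12 and P13, so GOLPH3 P13 was highest and Vector P11 lowest there too.

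In the comparison of the labels, no member was called at an adjusted p under 0.05, while 5.07% of the 26536 genes tested were. At an unadjusted p under 0.05, 5 of the 36 tested members were higher in the libraries labelled GOLPH3 (13.9%), where the share of all genes was 7.51%, and none was lower, where the share of all genes was 10.1%. The 5 were H2BC5, H2BC18, H2BC7, H4C1 and H3C13. Of these, H4C1 and H2BC7 met the filter through the libraries labelled GOLPH3, with at most 0.858 and 1.03 normalized reads in a Vector library. Their place among the 5, and among the 9 below, is therefore not independent of the filter. In 9 members (25.0%) each library labelled GOLPH3 lay above each Vector library, against 9.2% of all genes, and in no member did each lie below, against 12.8% of all genes. Those 9 were H2BC5, H2BC7, H2BC15, H2BC18, H3C6, H3C13, H4C1, H4C2 and H4C5. The exact permutation test gives p = 0.1 for each of them (two-sided), the smallest p that 3 against 3 libraries allow. The median log2 difference was 0.79 over the 36 members and 0.02 over all genes. Positive differences were found in 29 of the 36 members and in 13512 of the 26536 genes tested. With the P number as a block, 5 members were called (H1-2, H2AC6, H2BC5, H2BC18 and H4C5), a share of 13.9% where 22.9% of all genes were called. In that fit the P8 and P11 libraries stand alone in their blocks, so the difference rests on the P12 and P13 pairs with 1 residual degree of freedom.

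**Figure D3:**
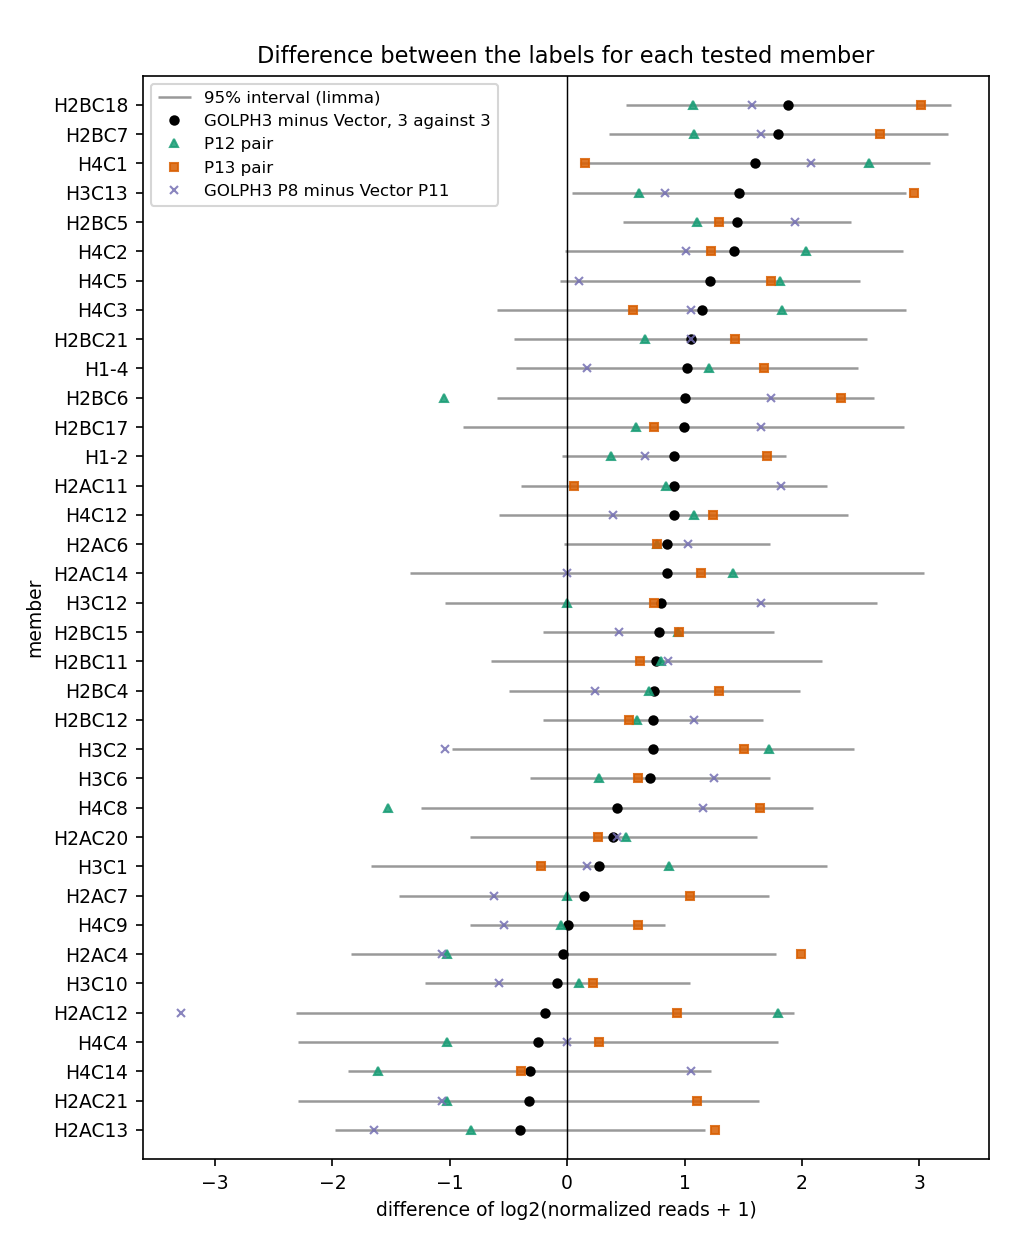
Difference of log2(normalized reads + 1) between the labels (horizontal axis) for the 36 tested members (rows, in order of the difference). Black points and grey lines are the limma estimate and its 95% interval for 3 against 3 libraries, and coloured symbols are single pairs of libraries. Of the black points, 29 lie above 0, and the interval of most members includes 0.

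Within single pairs of libraries the direction was alike for many members. GOLPH3 exceeded Vector in 27 of 36 members in the P12 pair, in 34 in the P13 pair and in 26 when P8 was set against P11, while the share of all genes was 50%, 47.9% and 47.4%. GOLPH3 was higher in all 3 pairs in 22 members (61.1%) and in 24.2% of all genes, and no member was lower in all 3. The medians over members were 0.68, 1.08 and 0.75 on the log2 scale for these pairs.

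The order of the libraries was also shared by many members. GOLPH3 P13 was highest in 21 of 36 and GOLPH3 P12 in 8, and Vector P11 was the sole lowest in 17, with 9 members tied for the lowest value. Among the 17 members averaging 10 or more, GOLPH3 P13 was highest in 11 and Vector P11 lowest in 12 (70.6%), where Vector P11 was lowest in 27.0% of all genes at that level. As all members were read from the same 6 libraries, these counts describe the libraries and are not 17 independent observations. The 5 members at that level whose lowest library was another were H2BC15, H3C10, H3C13, H4C5 and H4C9.

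Setting the P12 libraries against the other 4, with the label as a covariate, asked whether the family followed the P number. None of the 36 members had an adjusted p under 0.05, and the share of all genes was 0%. At an unadjusted p under 0.05, 2 members passed (5.56%), where the share of all genes was 7.24%. H2AC6 was higher by 0.84 ± 0.35 (SE, limma adjusted p = 0.658), following the levels of 289 and 170 in the P12 libraries. H3C1, an H3 gene of low level, was lower by 2.32 ± 0.68 (adjusted p = 0.464), with 0.825 and 0 normalized reads in GOLPH3 P12 and Vector P12 against 4.27 to 7.51 in the other 4 libraries. The 2 groups did not overlap for H3C1, but its highest library had 7 reads. The next in order were H1-2 (0.77 ± 0.41), H4C12 (−1.11 ± 0.66) and H4C3 (1.21 ± 0.80). DESeq2 called no member here either, with 1 at an unadjusted p under 0.05, and edgeR called none, also with 1.

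The P13 libraries were then set against P8 and P11, again with the label as a covariate. Here 4 of 36 members were called higher at an adjusted p under 0.05 (11.1%), near the share of all genes of 10%, and none was called lower, where the share of all genes was 6.84%. H2BC21 rose by 1.97 ± 0.50 (SE, limma adjusted p = 0.0188), from 19.3 and 8.76 normalized reads in GOLPH3 P8 and Vector P11 to 89.7 and 32.6 in the P13 libraries. H2BC12 rose by 1.08 ± 0.28 (adjusted p = 0.0205), from 165 and 77.8 to 289 and 201. H2AC14 and H4C4 passed as well (adjusted p = 0.0269 and 0.0378) but had no read in P8 and P11. Measured against the limit of 3 reads per library they were at least 2.30-fold and 1.78-fold higher in the P13 libraries. The median over the 36 members was 0.86, or 0.83 with those 2 at their bounds, against 0.06 over all genes. This fit leaves 2 residual degrees of freedom, and without the label as a covariate no member and no gene was called. None of these 4 members stayed called when either P13 library was left out, which leaves a lone P13 library. The median over the members tested was 0.59 without GOLPH3 P13, 1.15 without Vector P13 and 0.93 without Vector P11. All 3 comparisons use the same 6 libraries and are not independent of each other.

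Most members lie in 2 groups of the genome, 53 on chromosome 6 and 11 on chromosome 1. The chromosome 1 members spanned the libraries more widely, from 30.7 normalized reads in Vector P11 to 224 in GOLPH3 P13 (7.31-fold), than those of chromosome 6, from 627 to 1782 in the same libraries (2.84-fold). H2BC21, H2BC18 and H2AC20 made up most of the chromosome 1 sum. The difference between the 2 chromosomes was not tested. Several chromosome 1 members are near-identical copies, and H2AC18, H2AC19, H3C14, H3C15, H4C14 and H4C15 share 97.1% to 100% of their windows with another gene and had at most 5 reads in any library.

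**Figure D4:**
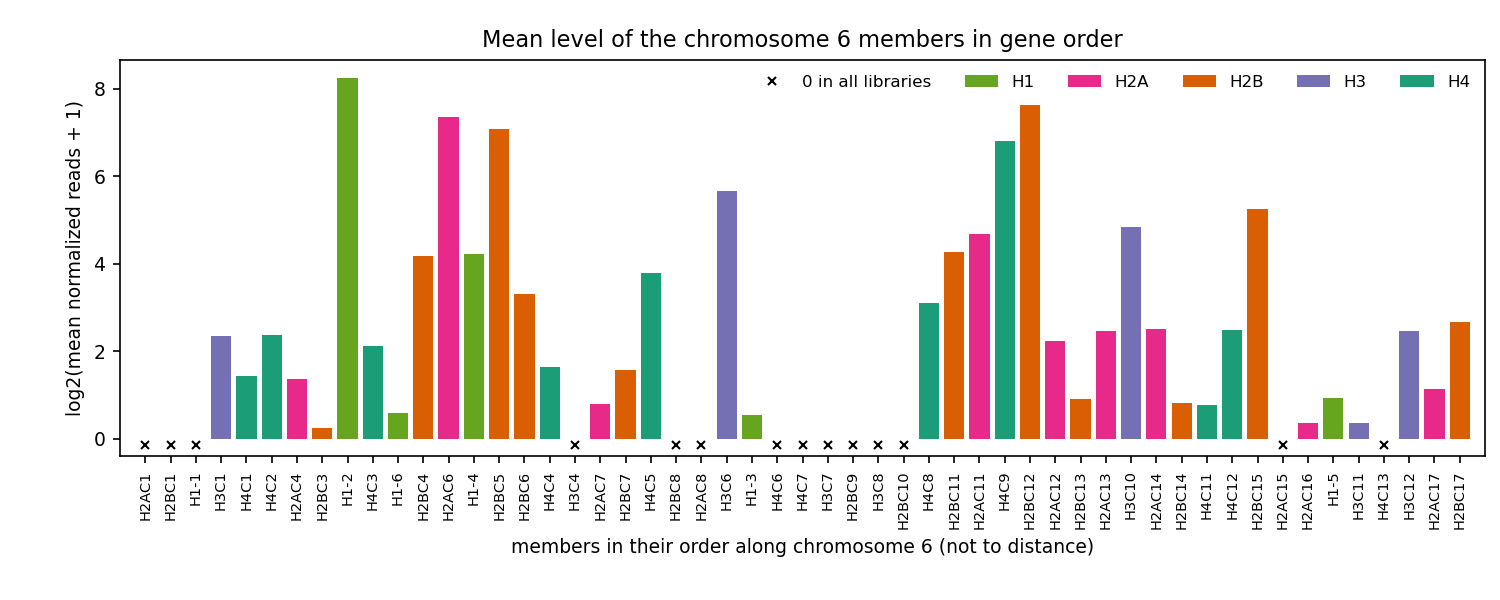
Mean level over the 6 libraries, as log2(normalized reads + 1) (vertical axis), of the 53 members on chromosome 6 in gene order (horizontal axis, not to distance). Bars are coloured by class and crosses mark members with 0 reads in all libraries. High and absent members stand side by side, and a run of members between H4C5 and H4C8 is at 0 apart from H3C6 and a trace of H1-3.

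Some neighbours that share a promoter region differed widely in level and others did not. There were 11 pairs of members that start within 1000 bases of each other and are read in opposite directions. H2BC4 and H2AC6, whose starts lie 219 bases apart, averaged 17.2 and 163 normalized reads. H2BC12 and H2AC12, 331 bases apart, averaged 197 and 3.69, so that here H2B was the higher partner. H2BC21 and H2AC20 (41.6 and 20.4) and H2BC11 and H2AC11 (18.3 and 24.6) were closer to each other. H3C12 and H2BC17 (4.51 and 5.37) were also counted as a pair, but the annotated start of H3C12 lies inside H2AC17. H2AC17 is itself paired with H2BC17, so H3C12 and H2BC17 may not be neighbours that share a promoter region. In the pairs H2AC1 with H2BC1 and H2BC8 with H2AC8 both partners had no read, and in the rest both averaged under 10 normalized reads. These levels are not per length, and the models of the partners differ in length.

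Members with and without extended transcript models had the same highest library, GOLPH3 P13, and the same lowest, Vector P11. The 22 with extended models summed to 614, 930 and 970 normalized reads in GOLPH3 P8, P12 and P13 and to 380, 602 and 472 in Vector P11, P12 and P13. The other 44, among them H2AC11 with its model of 2250 bases, summed to 471, 883 and 1057 and to 283, 603 and 484. Median log2 differences between the labels were 0.79 in each of the 2 sets, over 16 and 20 tested members. The values do not separate the tail-less from the polyadenylated form of any gene.

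Histone variants, most of which are also made outside S phase from polyadenylated messages, gave 12 tested genes. In the label comparison none was called at an adjusted p under 0.05, 1 was higher at an unadjusted p, and the median log2 difference was 0.25. H2AJ, an H2A variant, held 82.7, 277 and 323 normalized reads in GOLPH3 P8, P12 and P13 and 21.9, 105 and 138 in Vector P11, P12 and P13 (1.49 ± 0.68, adjusted p = 0.284). H2AX, the variant marked at DNA breaks, held 2956, 3254 and 4517 against 1075, 2577 and 3508 (adjusted p = 0.397). Vector P11 was the lowest library for both, as for 12 of the 17 members averaging 10 or more. In the P13 comparison 4 of the 12 were called higher, among them H2AJ (2.28 ± 0.32, adjusted p = 0.00217), and none lower. Of all genes, 10% were called higher in that comparison and 6.84% lower.

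Taken as a sum, factors that make or process histone messages did not show this order of libraries. Their 18 genes summed to between 22554 and 25785 normalized reads in every library, 1.14-fold from lowest to highest, with Vector P11 highest. Single factors differed in their order. LSM10 was lowest in Vector P11 (339) and highest in GOLPH3 P13 (1049), an order that some other factors shared, while NPAT ran the other way. In the label comparison none passed an adjusted p under 0.05, and the median was −0.37. At an unadjusted p under 0.05, 2 were lower, as were 10.1% of all genes. SLBP, the stem-loop binding protein, held 2277, 1432 and 2227 in GOLPH3 P8, P12 and P13 and 2967, 2108 and 2494 in Vector P11, P12 and P13 (−0.37 ± 0.29, adjusted p = 0.570). NPAT, the activator of histone transcription, held 684, 391 and 265 against 1247, 704 and 663, with its highest value in Vector P11 (−1.01 ± 0.39, adjusted p = 0.195). NPAT fell in the P13 comparison (−1.14 ± 0.21, adjusted p = 0.00491), where H2BC12 and H2BC21 rose. In that comparison 2 of the 18 factors rose, one being LSM10 of the processing machinery (1.08 ± 0.20, adjusted p = 0.00441), and 5 fell. The shares of all genes called there were 10% higher and 6.84% lower.

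**Figure D5:**
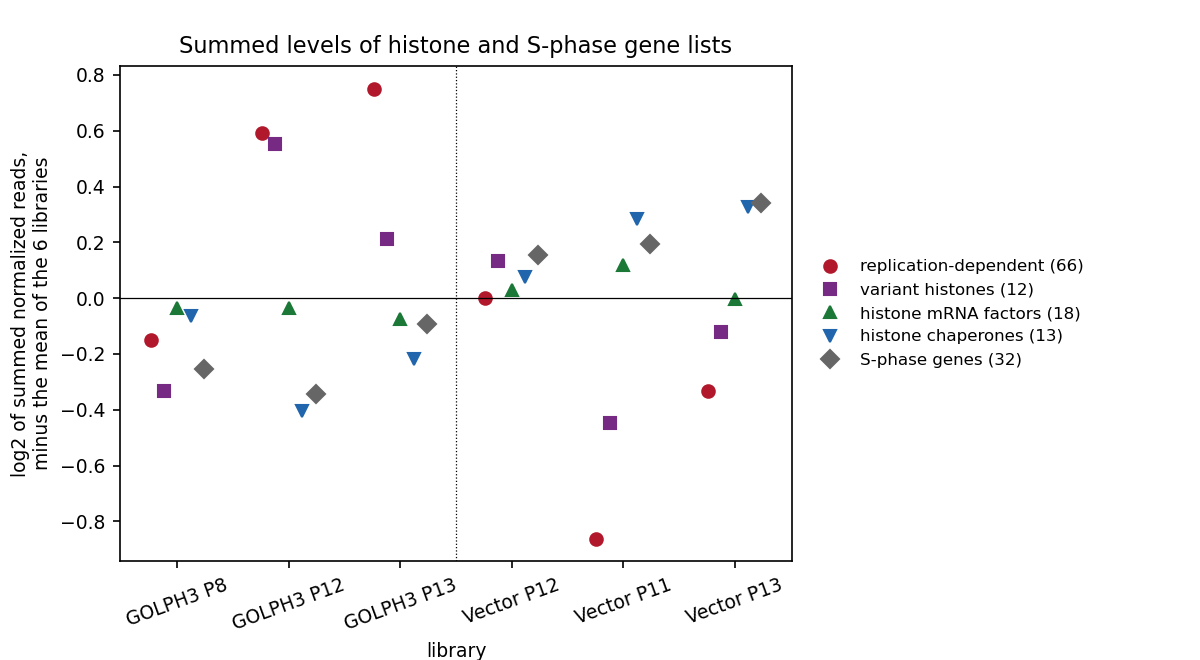
Summed normalized reads of 5 gene lists per library as log2 values relative to the mean of the 6 libraries (vertical axis), 1 symbol per list and library with no error (horizontal axis, symbols shifted sideways for clarity). The replication-dependent and variant histones are lowest in Vector P11, and the S-phase genes and histone chaperones lie lower in the GOLPH3 libraries than in the Vector libraries.

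Genes of S phase and histone chaperones had negative medians between the labels. Of 32 genes of DNA replication, 2 were lower and none higher at an adjusted p under 0.05, with a median of −0.43. Among all 26536 genes tested, 1093 were lower and 253 higher. RFC3, a subunit of the clamp loader, fell by 1.23 on the log2 scale (adjusted p = 0.0168). The 13 chaperones had a median of −0.47, none was called, and 4 were lower at an unadjusted p, among them NASP (−0.79 ± 0.26, adjusted p = 0.124). The share of all genes lower at an unadjusted p under 0.05 was 10.1%. In the P13 comparison 5 of the 32 replication genes were called higher and none lower, with a median of −0.01. There 3 chaperones were called higher and 3 lower, and of all genes 10% were called higher and 6.84% lower. RFC3 lost its call without GOLPH3 P13, Vector P12 or Vector P13 (adjusted p = 0.0881, 0.131 and 0.0641).

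Other features of the libraries moved with the labels and are given as measured. Of the colon epithelial markers 9 were listed and 8 tested, and 2 were called higher in the libraries labelled GOLPH3 (KRT18 and KRT19). Of the 8 differences 7 were positive, and CDX2 was lower (−0.52 ± 0.49, limma adjusted p = 0.636). Summed levels were 62845 to 134410 in the libraries labelled GOLPH3 against 30009 to 41154 in the Vector libraries. KRT18 lost its call in 7 of 13 alternatives, 5 of which leave out GOLPH3 P12, GOLPH3 P13 or any Vector library (adjusted p up to 0.195). Of 10 mesenchymal markers, 5 were called lower, with sums of 1603 to 2047 against 4107 to 7304. The 1 with a positive difference was COL1A1 (0.91 ± 0.32, limma adjusted p = 0.151). It held 1129, 800 and 1499 normalized reads in GOLPH3 P8, P12 and P13 and 466, 601 and 726 in Vector P11, P12 and P13, without overlap. ZEB2 had no read in the libraries labelled GOLPH3 and 191 to 482 normalized reads in the Vector libraries, and VIM held 5.37 to 41.2 against 1653 to 3407. Of 22 RNAs that lack a poly(A) tail, 4 were tested. RN7SL1 stood at 3439 normalized reads in GOLPH3 P12 and at 53.7 to 224 in the other 5 libraries, and SNORD3A at 135 in GOLPH3 P13 and at 1.10 to 6.44 in the others. The part of these features in the levels of the histone genes was not tested.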

How the data were processed

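RNA from 3 HCT-116 samples labelled GOLPH3 and 3 labelled Vector was sequenced by the authors. The values the authors deposited are a normalized signal per gene and library. The submitters' processing notes name fastp 0.20.0, HISAT2 2.1.0, featureCounts 1.6.1, Cufflinks, DESeq2 and GRCh38, with no role or order, and the annotation release, the strand setting and the treatment of multiply matching reads are not given in the sources used here. In each library 100% of the nonzero deposited values were whole multiples of 1 step (within 0.01 of a whole number), so the signal is read counts divided by a size factor, and the reads were recovered. Where an identifier had a second row (44 cases), its rows were summed. Depth was 15708846 to 21900764 recovered reads, and the exact intervals of read ratios and the limit of 3 reads cover counting error only, while the limma intervals rest on the spread between libraries.

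Tests on this normalized signal used limma 3.58.1 (R 4.3.3) on the log2 scale after adding 1, with the trend option for the prior variance, for genes at 1 or above in 3 or more libraries, with Benjamini-Hochberg adjustment over all 26536 genes. A fold change on this scale understates the change of genes with few reads. The members, gene lists and comparisons were chosen with earlier results of these data known. Named members are the 3 most abundant of each class, the 5 with the smallest p in the label and in the P12 comparison, and those used in the germ line. From other lists the 3 genes with the smallest p in each of these comparisons could be named, besides SLBP, NPAT and GOLPH3. H2BC15, H4C2, H2AC14, H4C4, COL1A1, CDX2, the other partners of divergent pairs, the chromosome 6 run and the members in the flagged results were named after their values were seen. No 2 libraries of a label agreed within sampling noise (chi-square per degree of freedom at least 65.3). Alternatives were DESeq2 1.42.0 and edgeR 4.0.16 on the recovered reads, other scalings, filters, pseudocounts and designs, and leaving out each library. The main designs of the 3 comparisons were also run with limma, edgeR and DESeq2 on simulated counts with known changes. The other designs, scalings, filters and pseudocounts and the fits without single libraries were not. Values of 2 genes outside the family are not reported here.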

Additional observations from a re-analysis of the deposited data

Results flagged for a closer look

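In 4 members with over 3 reads in some library, the P12 and the P13 pair pointed in opposite directions by more than 1 on the log2 scale in each. Members with smaller opposite differences are not listed. The differences are GOLPH3 minus Vector in log2(normalized reads + 1). For H4C8 the difference was −1.53 in the P12 pair and 1.64 in the P13 pair. Its normalized reads were 5.77 and 18.5 in the former and 7.47 and 1.72 in the latter. For H2BC6 the difference was −1.05 in the P12 pair and 2.33 in the P13 pair, where GOLPH3 P13 held 21.3 normalized reads and Vector P13 held 3.43. H2AC21 gave −1.02 and 1.11, and H2AC4 gave −1.02 and 1.99. Each value compares 1 library with 1 library, and the P12 values of H2AC21 and H2AC4 rest on 0 reads against 1 read. These differences were not tested.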

How the results depend on the processing

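The label comparison called no member at an adjusted p under 0.05, and this count was 0 under most alternatives. It was 1 with DESeq2 on the recovered reads, 1 with the P number as a linear covariate and 5 with the P number blocked. With the replicate number as a block the count was 0 and the median log2 difference of the members 0.79, and the number of genes called fell from 253 higher and 1093 lower to 178 and 903. The correlations of same-numbered libraries were −0.23, −0.15 and 0.26, so the replicate numbers do not pair the samples. By P number the correlations were 0.26 for P12, 0.26 for P13 and 0.33 for P8 with P11, a pattern in the data that the labels do not explain. They are correlations of deviations from the mean of a label, which sum to 0 over its 3 libraries. The value for P8 with P11 thus follows from the P12 and P13 libraries and is not a separate observation. Without single libraries the median of the members ranged from 0.56 to 1.08 (label), 0.14 to 0.61 (P12) and 0.59 to 1.15 (P13), and counts of called members stayed at 0 in the first and second comparisons. In the P13 comparison the count of 4 became 2 with DESeq2, 2 with edgeR and 0 without the label as a covariate, and ranged from 0 to 5 without single libraries. The log2 difference of the summed level between the P13 pair and P8 and P11, 0.71, ranged from 0.17 to 1.26 without single libraries. The sign of the label difference changed for H3C10 with quantile normalization (0.20) and with the P number blocked (0.16), and its values without single libraries ranged from −0.30 to 0.29. It changed for H4C9 without GOLPH3 P13, Vector P12 or Vector P13 (range without single libraries −0.17 to 0.19), for H4C8 with DESeq2 (−0.10) or without Vector P13 (−0.16), and for H3C1 without GOLPH3 P8 or Vector P12 (range −0.65 to 0.90). In the P12 comparison RN7SL1 (range −0.82 to 4.56) and COL3A1 (range −2.67 to 0.38) changed sign without GOLPH3 P12. The cause was not tested for any of these. Calls of KRT18 were lost in 7 alternatives and of RFC3 in 3. Of 816 alternative values for named genes, 773 kept direction and side of the threshold. With 1 library left out, a lone library in a level is assumed to vary like the others. Depth limits the members at or under 3 reads.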

Other observations

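On chromosome 6, from H2BC8 to H2BC10 (chr6:26215159-26273356, GRCh38), 10 members follow each other, and 8 of them had no read in any of the 6 libraries. The run was picked after its values were seen. The 8 were H2BC8, H2AC8, H4C6, H4C7, H3C7, H2BC9, H3C8 and H2BC10, and each had under 10% of its 50-base windows in another gene. Inside the same run H3C6 held 21.9 to 63.5 normalized reads, and H1-3 had at most 1 read in any library. Among all 66 members, 13 of the 15 with no read had under 10% of their windows in another gene, and 3 overlapped an exon of another gene.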
